A study of Mus musculus with 16 samples.

Results

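Laminins and integrins meet at the surface of muscle fibers, and the 38 genes that encode their chains were followed through gastrocnemius muscle of normal mice and of mice with tumors. The genes were chosen by symbol only, as the laminin alpha, beta, and gamma chains (11 genes) and the integrin alpha and beta chains (27 genes), out of 21923 genes in the deposited table. Itgb1bp1, Itgb1bp2, Itgb3bp, and Itgbl1 carry similar names but encode other proteins and were left out. RNA of 16 mice was sequenced, 1 library per mouse and 4 mice per group. NOR mice received PBS instead of tumor cells, and intraperitoneal PBS daily from day 9. CAC mice (cancer cachexia, the wasting of muscle and fat that tumors cause) carried subcutaneous tumors and received the same daily PBS. AM mice carried the same tumors and received amiloride, a diuretic used here to reduce exosome release, intraperitoneally at 2 mg/kg per day from day 9. KD mice carried tumors grown from cells in which Rab27a and Rab27b, genes for exosome release, were knocked down by shRNA, and also received PBS daily from day 9. The knock-down was in the injected cells and not in the muscle. In each group, replicates 1 and 2 are labelled C57BL/6, whose tumors were LLC (Lewis lung carcinoma), and replicates 3 and 4 BALB/c, whose tumors were CT26 (colon carcinoma), so that strain and tumor line cannot be told apart. Mice were 6 to 8 weeks old, and muscles were taken on day 30. The labels and the study's supplement give BALB/c mice of both sexes and male C57BL/6 mice, while its main methods name males only.

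A laminin is a cross-shaped trimer of 1 alpha, 1 beta, and 1 gamma chain, secreted into the basement membrane, the sheet of matrix around each muscle fiber, vessel, and nerve. An integrin is a receptor of 1 alpha and 1 beta chain that binds matrix or other cells outside and the cytoskeleton inside. In skeletal muscle the laminin with the alpha2 chain (Lama2) is bound by dystroglycan and by the integrin of alpha7 (Itga7) and beta1 (Itgb1), and loss of the alpha2 chain causes congenital muscular dystrophy. Other integrins bind collagens or proteins with an RGD (Arg-Gly-Asp) motif such as fibronectin, and a separate set is made by leukocytes. In bulk tissue fewer cells of a type and less RNA per cell cannot be told apart.

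The 16 libraries held 35913190 to 61032708 gene counts, of which the 38 genes took 0.144% to 0.215%. Markers of skeletal muscle fibers were abundant in every library, with a summed FPKM (fragments per kilobase of transcript and per unit of sequencing depth) of 42453 or more. This sum was lower in every CAC library (42453 to 69416 FPKM) than in every NOR library (74369 to 93649 FPKM), none of its 5 genes was a DEG, and its part in the changes between these groups was not tested. In 5 libraries (NOR replicate 1, CAC replicates 1 and 4, and KD replicates 2 and 3) the summed level of 4 B cell markers was 1.40 FPKM or less, while it was 13.3 to 193 FPKM in the other 11. KD replicates 2 and 3 also had the lowest sums of 4 fibroblast markers, 424 and 339 FPKM, against 652 to 979 FPKM elsewhere. Values without these libraries, an alternative chosen after seeing the data, are given beside the calls. No gene differed between the labelled strains over all 16 libraries by edgeR, and unadjusted p-values under 0.05 were reached by 1.63% of genes and by 0 of 37 laminin and integrin genes. limma-voom also called 0 of them. The absence of calls does not show that the labelled strains were alike, and the strain labels themselves were not tested.

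Expression levels spanned more than 3 orders of magnitude, here in FPKM, which corrects for gene length. Lamb2 (laminin beta2) was the most abundant, with 162 FPKM on average over the 16 libraries and a range of 122 to 205, and Itgb1, the shared partner of most matrix-binding alpha chains, followed with 114 FPKM (97.3 to 132). Lamc1, the common gamma chain, averaged 49.2 FPKM (26.9 to 66.8), Itga7 46.0 FPKM (35.9 to 55.7), and Itgb5 43.6 FPKM (33.3 to 53.4). The ranges of Lamc1, Itga7, and Itgb5 overlapped, so that their order does not exceed their spread, whereas the lowest Itgb1 value exceeded the highest value of each of these 3 genes. Among the alpha chains, Lama2 (14.3 FPKM), Lama4 (12.9 FPKM), which is typical of vessels, and Lama5 (10.9 FPKM) had overlapping ranges, Lama3 averaged 1.12 FPKM, and Lama1 was close to absent, at 0 to 5 counts per library, and was not tested. The most abundant gene of each remaining role was Itga1 for the collagen-binding alpha chains (7.04 FPKM), Itga9 for the alpha4 and alpha9 chains (7.15 FPKM), and Itgb2 for the leukocyte integrins (26.3 FPKM). Itgb2 ranged from 3.44 to 61.7 FPKM, the wide spread of a leukocyte gene. Itgb7, with 21.6 FPKM on average, had an overlapping range (2.40 to 64.1) and a higher mean than Itgb2 in NOR (24.7 against 20.2 FPKM).

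**Figure D1:**
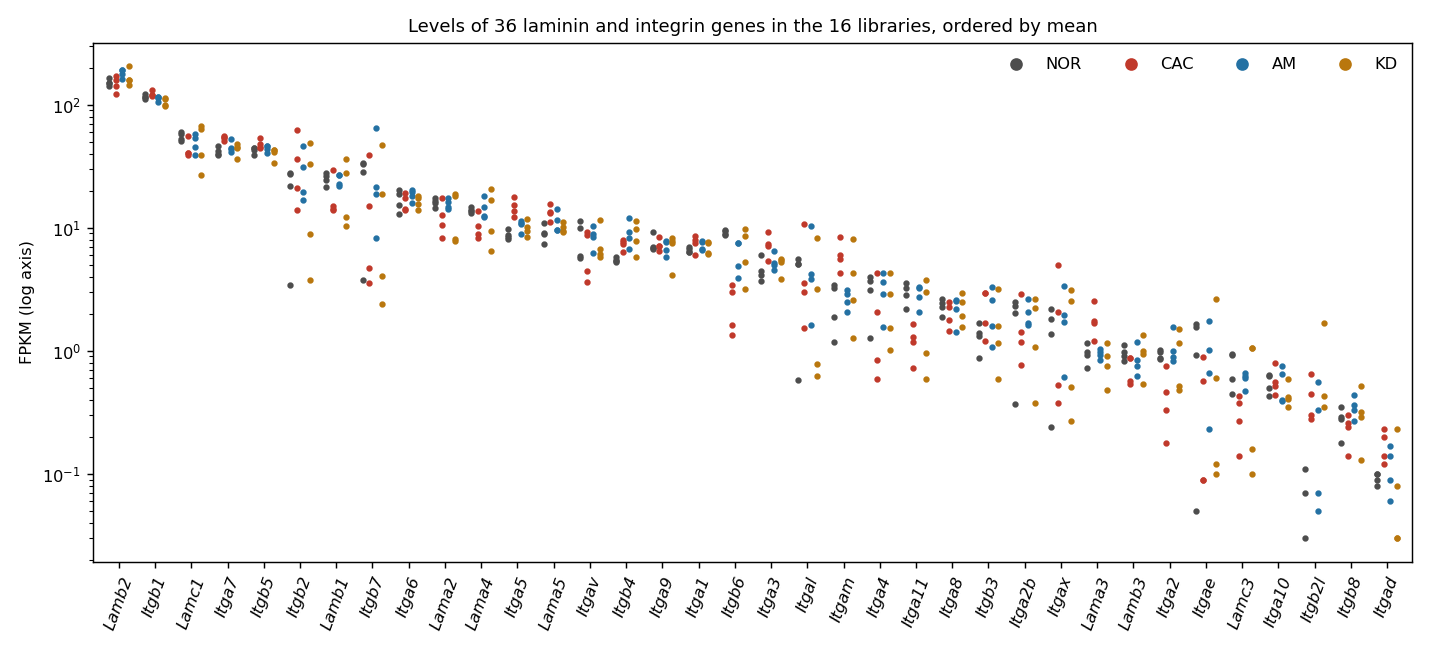
FPKM (log axis) of 36 tested genes in each of the 16 libraries, one point per library, colored by group and ordered by the mean over all libraries; 1 zero value in NOR and 1 in KD for Itgb2l are not drawn. Lamb2 and Itgb1 form the top, Itgad and Itgb8 the bottom, and leukocyte genes such as Itgb2, Itgb7, and Itgal spread far more within groups than matrix-binding integrins.

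The first comparison, CAC vs. NOR, asks what the tumor changes in muscle. A DEG (differentially expressed gene) passed an FDR of 0.05 in edgeR's quasi-likelihood test and changed by 1.5-fold or more, so that its ratio was above 1.5 or below 0.667. Of the 37 genes tested, 3 rose (Itga5, Itgam, and Itgb2l) and 4 fell (Lamc3, Itga2, Itga11, and Itgb6), while 4.32% of all 14666 genes tested rose and 5.13% fell. The remaining 30 did not pass. The CAC and NOR values did not overlap for 5 genes that were higher in CAC and 5 that were lower, where 12.5% and 10.8% of all genes did the same. The median log2 fold change was -0.15 over the 37 genes, -0.49 over the 10 laminins, and -0.04 over the 27 integrins, against 0.01 over all genes. In the 5 libraries with B cell markers at 2 FPKM or more (3 NOR and 2 CAC), fewer genes of any kind were called, 1.48% up and 1.14% down. There 0 of the 37 genes rose and 2 fell, Lama4 and Lamb1 (a beta chain). The 7 DEGs kept their direction without passing. Itgb6 had a log2 fold change of -1.90 (edgeR FDR 0.0642), Itga11 -1.66 (0.0669), Lamc3 -1.38 (0.112), and Itga2 -1.21 (0.227). The risers had 2.81 for Itgb2l (edgeR FDR 0.0614), 0.72 for Itgam (0.195), and 0.48 for Itga5 (0.0771).

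Before the values, promoter sequence is shown for the 2 genes (Itga11 and Itgam) that were DEGs in both CAC vs. NOR and AM vs. CAC and for Itgb6, which fell most and has 2 annotated starts. RefSeq (GRCm38.p6) gives windows for 24 of the 38 genes. The 250 bases before each start are printed 5′ to 3′ on the gene's strand. Capitals mark matches, on either strand, to GAGGAA (the core bound by PU.1 and other ETS factors), GGGCGG (GC box), or CAGATG (an E-box).
Itga11, chr9:62677605-62677854, plus strand: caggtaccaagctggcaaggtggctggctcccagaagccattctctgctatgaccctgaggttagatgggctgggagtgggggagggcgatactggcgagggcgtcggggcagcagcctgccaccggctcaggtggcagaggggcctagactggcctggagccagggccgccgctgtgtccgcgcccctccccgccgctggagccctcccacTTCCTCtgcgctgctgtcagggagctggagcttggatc
Itgam, chr7:128062390-128062639, plus strand: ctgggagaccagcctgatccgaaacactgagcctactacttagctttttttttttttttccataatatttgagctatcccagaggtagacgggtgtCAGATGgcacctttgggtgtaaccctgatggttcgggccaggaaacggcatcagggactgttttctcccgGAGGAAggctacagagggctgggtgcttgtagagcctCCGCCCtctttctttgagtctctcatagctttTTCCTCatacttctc
Itgb6, distal start, chr2:60722604-60722853, minus strand: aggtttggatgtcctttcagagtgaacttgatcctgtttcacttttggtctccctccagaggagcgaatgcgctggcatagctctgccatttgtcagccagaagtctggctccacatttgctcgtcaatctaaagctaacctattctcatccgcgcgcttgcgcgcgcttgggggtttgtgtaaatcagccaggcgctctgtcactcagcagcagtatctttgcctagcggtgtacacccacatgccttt
Itgb6, internal start, chr2:60673694-60673943, minus strand: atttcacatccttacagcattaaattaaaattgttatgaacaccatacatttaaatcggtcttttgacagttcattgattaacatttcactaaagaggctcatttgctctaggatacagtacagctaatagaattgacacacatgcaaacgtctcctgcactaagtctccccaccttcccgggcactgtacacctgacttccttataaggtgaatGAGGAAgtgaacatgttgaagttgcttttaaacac

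Itga11 held 1 GAGGAA, Itgam held 2 with 1 GGGCGG and 1 CAGATG, and the internal but not the distal Itgb6 window held 1 GAGGAA. The ETS core stood in 14 of 27 laminin and integrin windows and in 23.3% of all 32851 windows, GGGCGG in 9 and 32.7%, CAGATG in 5 and 14.4%, CCAAT in 4 and 33.8%, TTCNNNGAA (STAT) in 2 and 7.02%, and TGANTCA (AP-1) in 1 and 6.75%. TATAAA stood in 0 of the 27 windows and 12.4% of all. The forkhead motif (GTAAACA) likewise stood in 0 and 3.17%. The motifs do not overlap in the windows printed. Itga11 was GC-rich (68.4% GC) beside Itgam (49.6%) and the internal Itgb6 window (38.0%), where the median of all windows was 52.4%. A match is a description of letters and not of binding.

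Itgb6, the beta chain that pairs with alpha v and activates latent TGF-beta, fell most. In CPM (counts relative to the TMM-scaled library size) its values were 37.1, 30.1, 32.6, and 30.1 in NOR and 10.8, 11.9, 4.48, and 4.38 in CAC. Every CAC library lay below every NOR library, and the 2 CAC libraries labelled BALB/c were lowest. The mean fell from 32.5 ± 3.31 to 7.90 ± 4.03 CPM (SD, n = 4). On the log2 scale this was -2.05 ± 0.35 (SE), with an edgeR FDR of 0.00922. The call held whichever of the 8 libraries was left out (log2 fold change -2.31 to -1.85). Itgb6 is best known from epithelia. The 5 epithelial markers (Epcam, Krt8, Krt18, Krt5, and Krt14) summed to 0.27 to 3.89 FPKM, and 4 of them were at 0 in at least 1 library. The cell source of Itgb6 was not tested. The gene lies on chromosome 2 from 60598292 to 60722643, minus strand (GRCm38, GENCODE M21).

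Of the 4 alpha chains that bind collagen together with beta1, 2 fell and 2 did not pass, where 5.13% of all genes fell. Itga11, the collagen I receptor of fibroblasts, measured 18.2, 17.4, 14.3, and 10.8 CPM in NOR and 6.81, 5.89, 2.94, and 7.76 CPM in CAC. The groups did not overlap, and the log2 fold change was -1.39 ± 0.30 (edgeR FDR 0.0210). The call was lost without NOR replicate 1, 2, or 3 (highest FDR 0.0624). Itga2 was less abundant, with 3.70, 3.68, 3.89, and 3.30 CPM in NOR and 1.83, 0.694, 2.31, and 1.17 CPM in CAC. It fell by 1.27 ± 0.36 on the log2 scale (edgeR FDR 0.0484), and of the 8 fits with 1 library left out only that without CAC replicate 3 kept it. The call was lost with the labelled strain (-1.29, edgeR FDR 0.0562) or a lymphocyte score (-1.25, edgeR FDR 0.0574) as a covariate. Itga1 (0.07 ± 0.13) and Itga10 (-0.06 ± 0.27) showed no detectable change, although the direction of Itga10 was positive when only total counts were used for scaling.

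Itga11 varied between libraries with the tendon markers. Tendon markers (Scx, Tnmd, Mkx, and Fmod) summed, mostly through Fmod, to 182 to 280 FPKM in NOR, 44.1 to 95.1 in CAC, and 144 to 213 in AM, and to 208, 45.7, 71.2, and 160 FPKM in KD replicates 1 to 4. Of these 4 genes, Tnmd and Fmod were themselves DEGs that fell, with log2 fold changes of -3.38 and -1.77. Mkx (-0.61 ± 0.48) and Scx (0.22 ± 0.33) did not pass, and Scx was not lower in CAC. Of the 4 fibroblast markers only Dpt was a DEG (-1.47), while all 4 had log2 fold changes below 0 (median -0.76). None of the tendon markers was at 0. Their part in the change of Itga11 was not tested.

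Among the laminins only Lamc3, a gamma chain of low abundance, was a DEG. It measured 3.49, 4.78, 2.40, and 5.00 CPM in NOR and 0.780, 1.43, 1.61, and 2.17 CPM in CAC, without overlap. Its log2 fold change was -1.38 ± 0.36 (edgeR FDR 0.0368), and of the 8 fits with 1 library left out, those without NOR replicate 3 or CAC replicate 4 kept the call. Gm13441 on the opposite strand covers 6.27% of its exon bases. Lama4 fell short of the fold limit. It measured 93.4, 83.3, 90.4, and 78.9 CPM in NOR and 56.1, 50.5, 50.1, and 78.0 CPM in CAC, with a log2 fold change of -0.57 ± 0.15 at an FDR of 0.0436 in edgeR. limma-voom (-0.59, FDR 0.0364) and the edgeR fit without CAC replicate 4 (-0.73, FDR 0.00887) called Lama4 down. Lama3, a chain of epithelial laminins, moved the other way in values but did not pass, with 8.96, 9.17, 7.50, and 5.74 CPM in NOR and 14.8, 9.78, 10.9, and 19.2 CPM in CAC (log2 fold change 0.79 ± 0.25, edgeR FDR 0.0683). DESeq2 (FDR 0.0194) and total-count scaling (edgeR FDR 0.0375) called Lama3 up.

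The major chains of the muscle basement membrane did not pass the test. Lama2 had a log2 fold change of -0.51 ± 0.24, Lamb1 of -0.59 ± 0.26, Lamc1 of -0.47 ± 0.17, and Lamb2 of -0.15 ± 0.18, with edgeR FDRs of 0.203, 0.175, 0.105, and 0.649. Without CAC replicate 4, Lamb1 was a DEG that fell (-0.92, edgeR FDR 0.0150). Lama5 had 0.45 ± 0.13 (FDR 0.0516). The minor beta chain Lamb3 (-0.56 ± 0.22) did not pass either. With a lymphocyte score as a covariate, which called 4.43% of all genes up and 6.87% down, Lama2, Lama4, Lamb1, and Lamc1 were DEGs that fell, with log2 fold changes of -0.76, -0.68, -0.81, and -0.60. The make-up of the alpha chains differed between the groups in its values. Lama2 contributed 43.0%, 39.7%, 35.5%, and 43.6% of summed alpha chain FPKM in NOR and 34.9%, 33.9%, 24.7%, and 35.4% in CAC. Lama5 contributed 19.1%, 22.5%, 26.4%, and 21.9% in NOR and 36.0%, 35.8%, 39.8%, and 31.7% in CAC, so that every CAC library had a larger Lama5 share than every NOR library. Lama4 gave 34.7% ± 1.41 in NOR and 27.2% ± 2.58 in CAC (SD, n = 4). Shares must sum to 100%, so they are not independent, and no test was run on them.

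**Figure D2:**
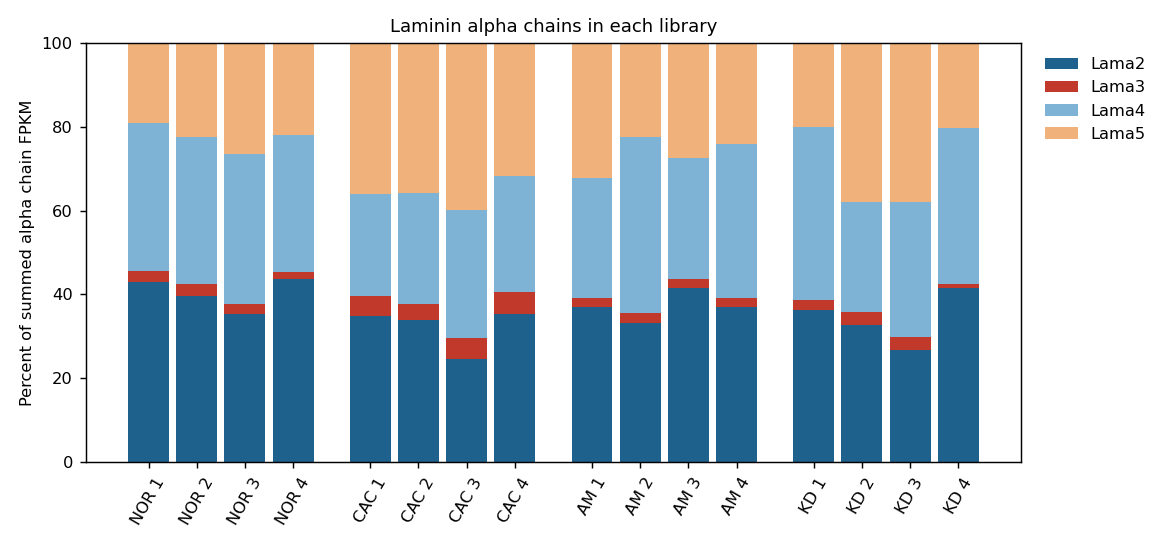
Share of each laminin alpha chain in the summed alpha chain FPKM (percent) of each library, one bar per mouse; Lama1, at 0.03% or less, is not drawn. Lama5 takes 31.7% to 39.8% in CAC and 19.1% to 26.4% in NOR, and AM replicate 1 (32.2%) and KD replicates 2 and 3 (38.1% each) lie within the CAC range.

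No laminin-binding integrin was a DEG. Itgb1 measured 271 ± 11.9 CPM in NOR and 264 ± 30.9 CPM in CAC (log2 fold change -0.04 ± 0.11), a value whose sign turned positive with total-count scaling. Itga7, the muscle laminin receptor, had 0.23 ± 0.14, Itga6 -0.17 ± 0.18, Itgb4 0.30 ± 0.15, and Itga3 0.54 ± 0.19, with an edgeR FDR of 0.0987 for Itga3 and larger ones for the others.

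Of the integrins that bind RGD ligands and their relatives, Itga5, the fibronectin receptor chain, rose. It measured 40.2, 42.6, 39.2, and 36.7 CPM in NOR and 63.6, 54.1, 53.8, and 73.5 CPM in CAC. All CAC libraries were above all NOR libraries, with a log2 fold change of 0.62 ± 0.12 (edgeR FDR 0.0125), close to the fold limit of 0.585. Without NOR replicate 4 or CAC replicate 4 it fell under that limit. The other 6 members besides Itgb6 did not pass, with log2 fold changes from -0.51 (Itgav) to 0.61 (Itgb3). Itgb5, the most abundant of them, went from 125 ± 14.1 to 129 ± 24.0 CPM (0.05 ± 0.15). Itga9, a receptor for tenascin and osteopontin, did not pass, with 24.5 ± 3.59 CPM in NOR and 22.1 ± 1.36 CPM in CAC (-0.15 ± 0.12).

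Among the leukocyte integrins, 2 of 8 rose, beside 4.32% of all genes. Itgam encodes CD11b, the alpha chain of the complement receptor of neutrophils and monocytes. It measured 5.41, 13.0, 14.2, and 7.63 CPM in NOR and 23.9, 17.7, 19.8, and 32.7 CPM in CAC (log2 fold change 1.23 ± 0.32, edgeR FDR 0.0381). The groups did not overlap, but leaving out any 1 of the 8 libraries lost the call (FDR 0.0510 to 0.0870). Itgam lies on chromosome 7 from 128062640 to 128118491, plus strand (GRCm38), and Gm49368 on the same strand covers 68.7% of its exon bases, so its reads may have been split. Itgb2l, a beta2-like chain, was rare, with 0, 5, 10, and 17 reads in NOR and 37, 55, 77, and 46 reads in CAC. Its log2 fold change was 2.84 ± 0.76 (edgeR FDR 0.0429), and of the 8 fits only those without NOR replicate 1 or 4 kept the call. Itgad, with 0.243 ± 0.0379 CPM in NOR and 0.418 ± 0.109 CPM in CAC, also did not overlap but did not pass (0.79 ± 0.37). Neutrophil markers moved with both. S100a8, S100a9, and Retnlg were DEGs that rose, and with Ly6g, which was at 0 in at least 1 library, they summed to 6.53 to 40.6 FPKM in NOR and 153 to 377 in CAC. Their part in the change of Itgam and Itgb2l was not tested.

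Other integrins of leukocytes varied between libraries with the lymphocyte markers. Itgb7, which pairs with alpha4 or alpha E on lymphocytes, had 3.77, 28.3, 33.8, and 33.0 FPKM in NOR, 4.74, 14.9, 39.0, and 3.55 in CAC, 64.1, 21.5, 8.32, and 18.8 in AM, and 47.2, 4.05, 2.40, and 18.7 in KD. The 5 libraries low in B cell markers were the 5 lowest for Itgb7, Itgax, and Itgae, in FPKM and in CPM. For Itga4 this held in FPKM, and in CPM for 4 of the 5. For Itgal, Itgb2, and the platelet integrin chain Itga2b, 4 of those 5 were among the 5 lowest on both scales. T cell markers (Cd3d, Cd3e, Cd3g, and Cd2) summed to 0.29 to 1.18 FPKM in the same 5 libraries. CAC vs. NOR log2 fold changes of Itgb7, Itga4, Itgax, Itgae, Itgal, and Itgb2 had SEs of 0.56 to 0.99, and none passed. With the lymphocyte score as a covariate Itgax, the dendritic cell integrin CD11c, rose (0.90, edgeR FDR 0.0319), whereas the calls of Itgam (1.22, FDR 0.0578) and Itga5 (0.54, under the fold limit) were lost. NOR, CAC, and KD each held at least 1 of the 5 libraries low in B cell markers, and AM held none.

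**Figure D3:**
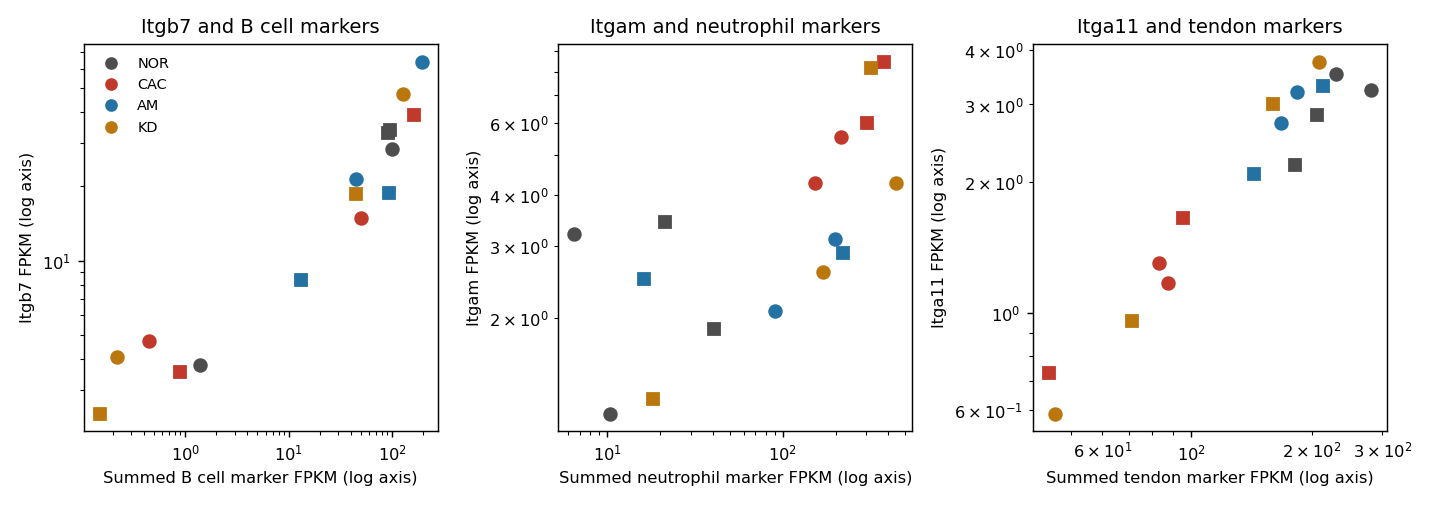
FPKM of Itgb7, Itgam, and Itga11 against the summed FPKM of B cell, neutrophil, and tendon markers (log axes), one point per library (circles labelled C57BL/6, squares BALB/c). The 5 libraries under 2 FPKM of B cell markers have the 5 lowest Itgb7 values, and the 4 CAC libraries with KD replicates 2 and 3 are lowest for both tendon markers and Itga11.

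AM vs. CAC asks whether amiloride changed the muscle of tumor-bearing mice. It shares its CAC libraries with CAC vs. NOR, so opposite signs in the 2 comparisons are not independent. Of 37 genes, Itga11 rose and Itgam fell, against 1.63% and 2.03% of all genes tested. Groups did not overlap for 4 genes higher in AM and 3 lower, against 6.05% and 9.27% of all genes. Itga11 measured 14.4, 13.7, 16.4, and 10.7 CPM in AM, each above the highest CAC value of 7.76 CPM (log2 fold change 1.25 ± 0.28, edgeR FDR 0.0421). Itgam measured 7.66, 13.0, 11.8, and 10.6 CPM in AM, each below the lowest CAC value of 17.7 CPM (log2 fold change -1.13 ± 0.22, edgeR FDR 0.0268). Of the 8 fits with 1 library left out, those without CAC replicate 3 or 4 kept the call of Itga11 (highest FDR 0.104), and those without CAC replicate 2 or 4 kept that of Itgam (highest FDR 0.0769). With the labelled strain as a covariate the Itga11 call was lost (edgeR FDR 0.0679) and the Itgam call held (edgeR FDR 0.0468). With libraries of low B cell markers removed, 4 AM and 2 CAC libraries remained, in which only 0.0462% of all genes rose and 0.0726% fell. Neither gene was a DEG there, with a log2 fold change of 1.64 for Itga11 (edgeR FDR 0.0890) and -0.83 for Itgam (edgeR FDR 0.150). Of the 4 tendon markers, Tnmd and Fmod rose, and Mkx (0.37 ± 0.47) and Scx (-0.71 ± 0.22) did not pass. Of the 4 neutrophil markers 0 passed, with a sum of 16.2 to 220 FPKM in AM.

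Of the other 5 DEGs of CAC vs. NOR, none passed in AM vs. CAC. Itgb2l overlapped CAC, with 5, 55, 42, and 9 reads in AM. Itgb6 measured 12.2, 17.1, 26.1, and 26.7 CPM in AM, all above CAC (log2 fold change 1.38 ± 0.40, edgeR FDR 0.0894). Itga2 had 1.39 ± 0.39 (FDR 0.0824) and Lamc3 1.03 ± 0.33 (FDR 0.111), again without overlap. Lama3, no DEG in CAC vs. NOR, measured 7.01, 8.41, 6.79, and 7.68 CPM in AM, all below CAC (-0.87 ± 0.21, FDR 0.0542), and Itga5 had -0.44 ± 0.11 (FDR 0.0588). DESeq2, which called 4.37% of all genes up and 3.26% down, called Itgb6, Itga2, and Lamc3 up and Lama3 down. By group, the median log2 fold change was 0.32 over the laminins and 0.06 over the integrins, against 0.01 over all genes. With total-count scaling the integrin median was -0.037 and that of all genes -0.055.

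**Figure D4:**
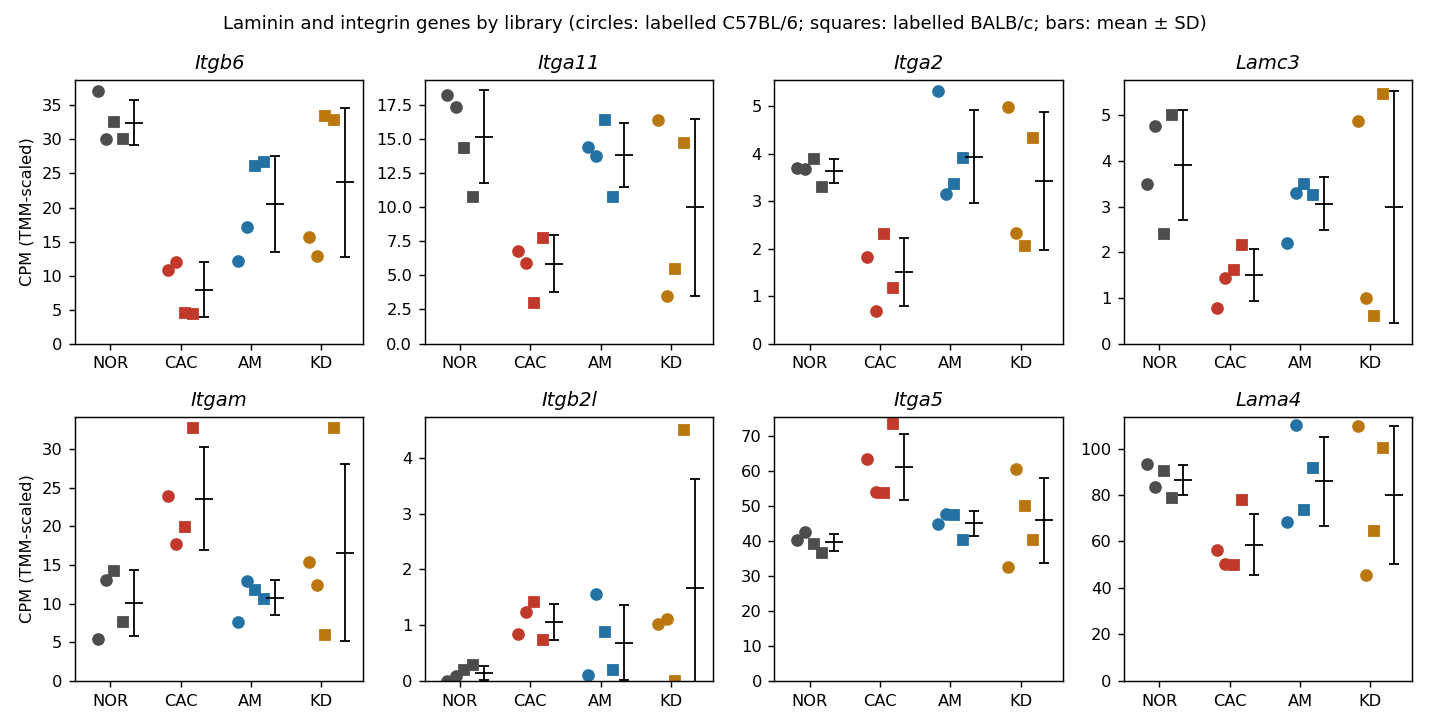
TMM-scaled CPM of the 7 DEGs and of Lama4, one point per library, with mean ± SD (n = 4) beside each group; circles are labelled C57BL/6 and squares BALB/c. The CAC points do not overlap the NOR points in any panel, and in KD the values of Itga11, Itga2, and Lamc3 split into replicates 1 and 4 near NOR and replicates 2 and 3 near CAC.

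KD vs. CAC asks the same of tumors with reduced exosome release. By edgeR 0 of 37 genes were DEGs, as were 0% of all genes upward and 0.00685% downward. Unadjusted p-values under 0.05 were reached by 3 genes, 2 higher and 1 lower, against 11.1% of all genes, and limma-voom called 0. DESeq2 called Itgb6 up and 0 down, among 1.58% of all genes up and 0.699% down. Itgb6 was also the 1 gene whose KD values all exceeded CAC (3.71% of all genes did so), with 15.7, 12.8, 33.4, and 32.9 CPM and a log2 fold change of 1.58 ± 0.45 (edgeR FDR 0.286). Lama3 was the 1 gene with all KD values below CAC (3.58% of all genes), with 8.08, 7.18, 8.34, and 3.78 CPM and a log2 fold change of -1.002 ± 0.31 (edgeR FDR 0.311). Itga11 measured 16.4, 3.45, 5.43, and 14.7 CPM and Lamc3 4.88, 0.993, 0.614, and 5.47 CPM. In both genes replicates 1 and 4 lay within or above the NOR range and replicates 2 and 3, which were low in tendon and fibroblast markers, within or below the CAC range. With the 2 KD libraries above 500 FPKM of fibroblast markers alone, the log2 fold change was 1.41 for Itga11 (FDR 0.0951) and 1.78 for Lamc3 (FDR 0.0800) by edgeR. In this setting 0 of the laminin and integrin genes were called, while 0.422% of all genes rose and 0.455% fell. The risers of CAC vs. NOR overlapped CAC in KD. Itgam measured 15.4, 12.4, 5.88, and 32.7 CPM there, and Itga5 measured 32.5, 60.7, 50.2, and 40.4 CPM. Itgb2l had 53, 45, 0, and 245 reads, beside neutrophil marker sums of 442, 169.6, 18.4, and 319.8 FPKM.

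**Figure D5:**
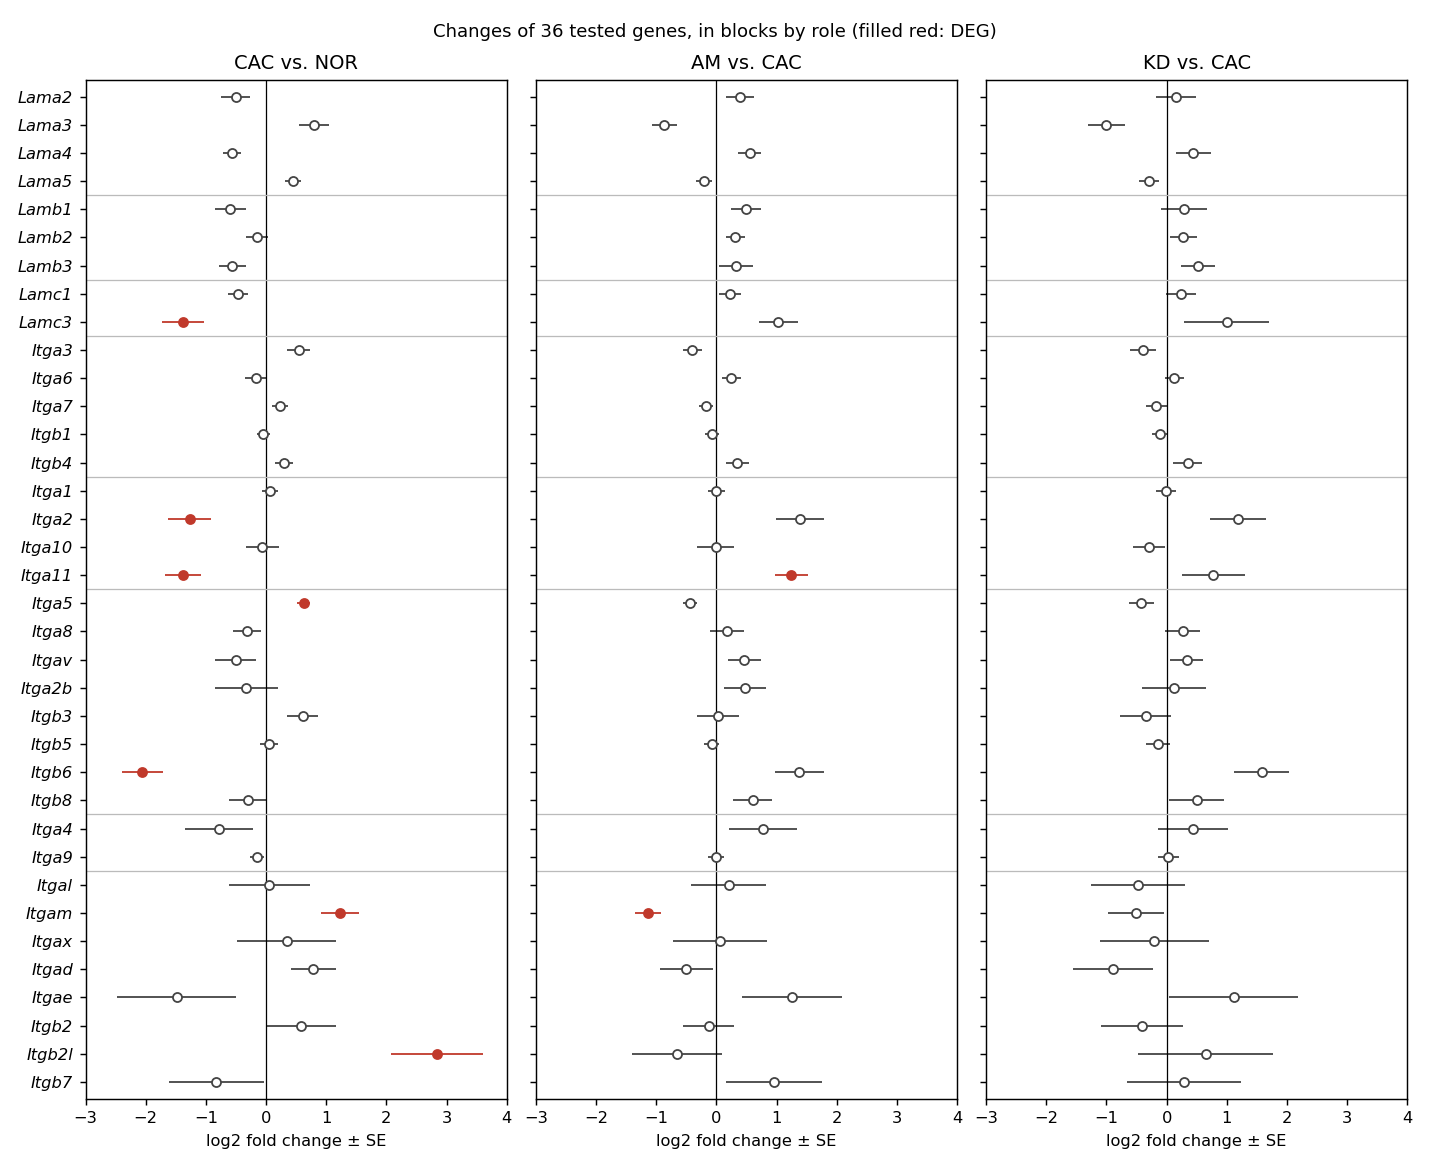
Log2 fold change ± SE of 36 tested genes for each of the 3 comparisons (CAC against NOR, AM against CAC, KD against CAC), in blocks by role from laminin alpha chains at the top to leukocyte integrins at the bottom, with DEGs filled in red. Itgb6 has the lowest value in CAC vs. NOR (-2.05), and SEs are widest among leukocyte integrins.

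Neither intervention group differed from NOR by a DEG. In AM vs. NOR edgeR called 0% of genes and limma-voom 0 of the laminin and integrin genes, with unadjusted p-values under 0.05 for 2 of 36 of them and 9.19% of all genes. These were Itgb4, the beta chain of the epithelial laminin receptor (log2 fold change 0.66 ± 0.17), and Itgb6 (-0.66 ± 0.23). In KD vs. NOR the counts were 0% and 0, with 2 of 37 genes (Itgb4 and Itgb2l) and 3.54% of all genes under 0.05 unadjusted. In AM vs. KD they were 0% and 0, with 0 of 37 and 1.11%. The absence of DEGs does not show that the groups were alike.

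The change of a gene could also differ between the labelled strains, that is, between LLC and CT26 tumors. edgeR and limma-voom found 0 genes of the 37 with an interaction at an FDR of 0.05 in any of the 3 comparisons. Unadjusted, 2 genes were under 0.05 in CAC vs. NOR (4.89% of all genes). There were 5 such genes for AM vs. CAC (12.4%) and 2 for KD vs. CAC (5.65%). Itgb6 was among them in all 3. Relative to CAC, it was 0.38 log2 units higher in AM and 0.35 in KD among mice labelled C57BL/6, and 2.55 and 2.88 higher among mice labelled BALB/c. The interaction was 2.18 ± 0.28 for AM (edgeR FDR 0.212) and 2.53 ± 0.27 for KD (edgeR FDR 0.621), and so did not pass. Itgav, the alpha chain that partners Itgb6, had 34.6 and 34.8 CPM in C57BL/6-labelled NOR mice and 11.7 and 13.9 in CAC, but 18.3 and 17.5 CPM in BALB/c-labelled NOR mice and 23.0 and 25.6 in CAC. The log2 fold change of Itgav was -1.44 in the first (edgeR FDR 0.0354, 2 against 2 mice) and 0.47 in the second (FDR 0.242), with an interaction of 1.96 ± 0.19 (edgeR FDR 0.1799).

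Partners of these genes were counted from fixed lists. Of 8 basement membrane partners and other laminin receptors, Nid1, Nid2, and Hspg2 fell in CAC vs. NOR, and 5 did not pass, where 5.13% of all genes fell and 4.32% rose. Nid1 and Nid2 encode nidogens, which tie laminin to collagen IV, and Hspg2 encodes perlecan. Nid2 went from 49.7 ± 5.05 to 22.5 ± 4.38 CPM (log2 fold change -1.15 ± 0.15, edgeR FDR 0.00405) and rose in AM vs. CAC to 43.4 ± 4.04 CPM (0.95 ± 0.15, FDR 0.0127). Nid1 had -0.81 ± 0.16 and Hspg2 -0.75 ± 0.20. Of 17 tested adaptors of the integrin tail, such as talins and kindlins, only Itgb1bp2 (melusin, a muscle protein that binds beta1) fell, from 134 ± 19.2 to 37.3 ± 14.99 CPM (-1.86 ± 0.32, edgeR FDR 0.00977), and none rose. This is 1 of 17, near the 5.13% of all genes that fell. Of 14 integrin ligands other than collagens, Fn1 (fibronectin), Npnt (nephronectin), and Postn (periostin) fell and Icam1, the ligand of beta2 integrins, rose, beside 5.13% of all genes that fell and 4.32% that rose. Fn1 went from 304 ± 49.3 to 132 ± 31.8 CPM (-1.22 ± 0.20, FDR 0.00823 in edgeR) and rose in AM vs. CAC to 285 ± 41.4 CPM (1.12 ± 0.18, FDR 0.0154). Its receptor chain Itga5 rose in CAC vs. NOR and did not pass in AM vs. CAC. In AM vs. CAC no other gene of these lists was a DEG, and in KD vs. CAC edgeR called none of the 39 tested.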

How the data were processed

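Poly(A) RNA of gastrocnemius from 16 mice was sequenced by the authors on a HiSeq2500. Per the labels, the submitters' processing notes name fastp, Bowtie2, HISAT2, StringTie 1.3.1, and the builds mm9 and GRCm38; roles, strandedness, and the counting tool are not given in the sources used here. The authors deposited raw integer counts per gene, and FPKM, which follow from these counts with 1 length per gene (implied length varied by at most 0.0314% over 4407 genes). All 16 count columns were mapped by name to a labelled group. Replicates are separate mice. The values of 1 tested gene are not reported here, though it enters the counts and medians of the 3 main comparisons.

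Counts were analyzed in R 4.3.3 with edgeR 4.0.16 (TMM, quasi-likelihood F test; genes kept by filterByExpr at 10 counts and 15 in total), fitting the 8 libraries compared, with Benjamini-Hochberg adjustment over all genes tested. Limits were an FDR of 0.05 and a fold change of 1.5 or 0.667. The SE is the log2 fold change divided by the root of F. NOISeq, used by the authors, is not installed. Two-sided exact permutation tests of 4 against 4 cannot go below p = 0.0286, the value of every non-overlapping gene. Within a group, mice differed by far more than counting error (chi-square per degree of freedom at least 61.8). limma-voom 3.58.1, DESeq2 1.42.0, other scalings, filters, covariates (labelled strain, lymphocyte score), and left-out libraries were alternatives. Positions and overlaps come from GENCODE M21 and promoters from RefSeq, read with Python 3.11.15. Levels are FPKM; log2 CPM used a prior count of 2.

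The genes, role lists, partner lists, and cell type markers were chosen with earlier results of these data known. Values are given for every DEG, the most abundant gene of each role, and up to 3 DEGs per partner list; Icam1, Lama3, Lama4, Itgav, and other single genes, and the limits of 2 FPKM of B cell and 500 FPKM of fibroblast markers, were added after values were seen.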

Additional observations from a re-analysis of the deposited data

Results flagged for a closer look

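In each of 144 combinations of a tested gene and a group, the library farthest from its group was set against the 95% critical value of Dixon's test for 4 samples, which chance passes in about 1 of 20 groups. It was passed in 5. Lamb1 measured 108.7 CPM in CAC replicate 4 against 47.7 to 57.3 CPM in the other 3 CAC mice. Itga6 measured 78.9 CPM in CAC replicate 1 against 52.2 to 55.1. Itgal, the alpha chain of LFA-1, measured 2.98 CPM in NOR replicate 1 against 22.5 to 25.3 in the other 3 NOR mice, and that library is 1 of the 5 with B cell markers under 2 FPKM. Itgb4 measured 39.3 CPM in NOR replicate 1 against 31.2 to 32.4. KD replicate 1 was highest for Itgav, with 30.97 CPM against 20.2 to 22.0.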

How the results depend on the processing

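In CAC vs. NOR, 3 genes rose and 4 fell in the main analysis. With a replicate block 1 rose (Itga5) and 2 fell (Itga11 and Itgb6), among 533 up and 607 down of all genes, and in AM vs. CAC the replicate block left 0 and 0 of the 1 that rose and the 1 that fell. Deviations of same-numbered libraries correlated at 0.68, 0.18, 0.41, and -0.24 in CAC vs. NOR, between -0.56 and 0.068 in AM vs. CAC, and between -0.70 and -0.30 in KD vs. CAC, so the numbers were not taken to pair the mice. In CAC vs. NOR, 2 fell with total counts only, 1 rose with all 16 libraries in 1 fit (516 up and 688 down of all genes), 7 fell with a lymphocyte score as a covariate, 0 rose and 2 fell in libraries with B cell markers at 2 FPKM or more, 0 rose in mice labelled C57BL/6, and 0 rose and 0 fell in those labelled BALB/c, where no gene of any kind was called. Of all genes, 125 rose and 122 fell in mice labelled C57BL/6, and 649 rose and 1007 fell with the lymphocyte score. Leaving out 1 library gave 0 to 2 laminin and integrin genes up and 1 to 5 down. In AM vs. CAC, 0 rose without the count filter or with strain as a covariate, 0 and 0 changed with all 16 libraries, within either labelled strain, or in libraries with B cell markers, 2 rose with the lymphocyte score, and 4 rose and 2 fell with DESeq2. Within either labelled strain and with the block, this comparison called 0 of all genes, and with all 16 libraries 131 up and 100 down. Leaving out 1 library gave 0 to 2 up and 0 to 1 down. In KD vs. CAC, DESeq2 gave 1 up; other alternatives gave 0, as in the comparisons of AM and KD with NOR and with each other and in the strain tests.

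The 9 calls kept their direction in every alternative run. Total-count scaling moved the median of all genes in CAC vs. NOR from 0.01 to 0.14 (log2) and its DEGs from 633 up and 753 down to 959 up and 619 down; in KD vs. CAC the median moved to -0.11. In KD vs. CAC edgeR called 1 gene, but 90 up and 55 down with all 16 libraries in 1 fit and 64 up and 69 down with fibroblast-rich libraries only, and DESeq2 called 230 up and 102 down. The cause of these differences was not tested. With 4 mice per group and 2 per labelled strain, small changes could have been missed, and Lama1 was too rare to test.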
